A study of Homo sapiens with 4 samples.

Results

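The 10 genes described here encode E2F transcription factors (E2F1, E2F2, E2F3, E2F4, E2F6 and E2F8), the E2F dimer partner DP1 (TFDP1) and the pocket proteins (RB1, RBL1 and RBL2). They were taken by gene name from a deposited table of 11213 gene names, where all 10 were present with 22 of its 32551 transcripts. RNA was measured in K562 cells, an established line from human chronic myelogenous leukaemia that carries the BCR-ABL1 fusion. Of 4 libraries, 2 came from cells given a lentiviral short hairpin against the histone demethylase PHF8 (shPHF8) and 2 from cells given a control hairpin (shControl, labelled wild type), all infected with polybrene at 5 µg/ml and selected with puromycin at 2 µg/ml from 72 h. The labels give bone marrow as the tissue of origin. They do not say whether the shPHF8 libraries 1 and 2 carry the same hairpin, nor whether the cultures were separate. The p-values therefore measure only the spread between these samples, which may be technical.

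E2F factors bind the promoters of genes needed for DNA replication and mitosis, mostly as heterodimers with a DP protein. E2F1, E2F2 and E2F3 are known as activators, E2F4 acts mainly as a repressor together with the pocket proteins p107 (RBL1) and p130 (RBL2), and E2F6 and E2F8 repress without a pocket protein. RB1 holds the activators in check until cyclin-dependent kinases phosphorylate it at the passage from G1 into S phase. PHF8 has been described as a coactivator at promoters bound by E2F1.

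Several of these genes are themselves E2F targets, so promoter windows were read from RefSeq on build GRCh38.p14, which is not the build of the deposited table (hg19). Each window runs from 250 bases before a gene start to 50 after it. The motif searched was any of 4 forms of the E2F site, TTTCCCGC, TTTGGCGC, TTTCGCGC and TTTGCCGC, on both strands. Windows were found for 9 of the 10 genes, all but E2F8, and 5 of them (55.6%) held a match, against 7.11% of the 8928 tested genes with a window and 3.31% of all 35116 windows. RB1 was among those without a match, but its window lies 172724 bases from the start of the listed RB1 transcript in GENCODE release 29. Of the 8 genes whose window lies within 300 bases of a listed transcript start, 5 held a match, and E2F4, E2F6 and RBL2 did not. E2F1 had matches 33 and 20 bases before the start, E2F2 at 42, RBL1 at 26 and 16, the upstream start of E2F3 at 53 and TFDP1 at 120. The windows of these 5 genes are shown from 150 bases before the start to 50 after it with the matches in capitals, beside that of E2F4, which held none. A match describes letters only and is not evidence of binding.
E2F1, chr20:33686336-33686535, minus strand: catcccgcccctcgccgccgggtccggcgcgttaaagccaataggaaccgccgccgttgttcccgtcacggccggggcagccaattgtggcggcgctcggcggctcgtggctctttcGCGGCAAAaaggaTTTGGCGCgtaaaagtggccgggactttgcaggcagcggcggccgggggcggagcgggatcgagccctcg
E2F2, chr1:23531184-23531383, minus strand: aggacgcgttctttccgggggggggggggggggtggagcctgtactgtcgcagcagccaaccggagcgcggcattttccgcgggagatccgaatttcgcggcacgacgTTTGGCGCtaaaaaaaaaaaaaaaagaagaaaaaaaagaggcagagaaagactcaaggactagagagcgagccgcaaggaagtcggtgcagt
E2F3 upstream start, chr6:20401729-20401928, plus strand: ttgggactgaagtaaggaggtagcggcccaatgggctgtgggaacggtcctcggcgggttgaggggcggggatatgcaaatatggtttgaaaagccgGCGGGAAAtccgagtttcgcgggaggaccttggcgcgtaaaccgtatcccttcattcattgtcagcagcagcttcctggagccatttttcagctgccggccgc
RBL1, chr20:37095948-37096147, minus strand: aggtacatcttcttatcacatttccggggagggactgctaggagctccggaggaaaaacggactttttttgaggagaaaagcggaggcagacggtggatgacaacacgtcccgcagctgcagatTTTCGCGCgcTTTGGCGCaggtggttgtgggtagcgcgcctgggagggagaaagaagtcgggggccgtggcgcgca
TFDP1, chr13:113584603-113584802, plus strand: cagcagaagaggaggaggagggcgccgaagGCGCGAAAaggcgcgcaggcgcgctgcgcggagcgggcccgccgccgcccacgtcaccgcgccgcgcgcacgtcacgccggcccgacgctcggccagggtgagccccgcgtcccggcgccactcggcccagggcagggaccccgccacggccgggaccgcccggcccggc
E2F4, chr16:67192005-67192204, plus strand: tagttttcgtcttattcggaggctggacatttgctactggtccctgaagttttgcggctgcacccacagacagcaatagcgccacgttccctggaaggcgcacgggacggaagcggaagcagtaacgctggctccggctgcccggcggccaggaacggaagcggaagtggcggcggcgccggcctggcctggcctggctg

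The targeted gene PHF8 (ENSG00000172943) measured 6.06 and 6.42 TPM in shPHF8 libraries, against 25.9 and 22.5 TPM in the shControl libraries. TPM scale each transcript to its length and each library to the same total; the number of reads behind a value is unknown. The knockdown libraries thus held 25.8% of the control level, with a log2 fold change of -1.80 ± 0.16 (SE) and limma Benjamini-Hochberg adjusted p = 0.0643. Fold changes here and below are shPHF8 minus shControl on log2(TPM + 1), which understates changes of low genes, and p-values are from limma fitted across the 10972 genes that averaged 1 TPM or more.

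None of the 10 genes passed the Benjamini-Hochberg threshold of 0.05 over all genes, where 0 of 10972 (0%) passed. The smallest adjusted limma p among the 10 was 0.123. With an unadjusted limma p below 0.05 stood 4 of the 10 genes, with E2F1 and E2F2 higher and E2F3 and E2F4 lower in the shPHF8 libraries, against 22.0% of all genes tested, or 9.90% higher and 12.1% lower. In 9 of the 10 genes the shPHF8 libraries did not overlap the shControl libraries, 7 of them higher and 2 lower, against 55.3% of all genes, or 26.0% higher and 29.3% lower. In such bulk libraries fewer cells of a kind and less RNA per cell cannot be told apart. The median log2 fold change of the 10 genes was 0.23, and that of all genes tested was -0.02. The median size of the difference, without its sign, was 0.37 on the log2 scale for the 10 genes and 0.25 for all genes.

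**Figure D1:**
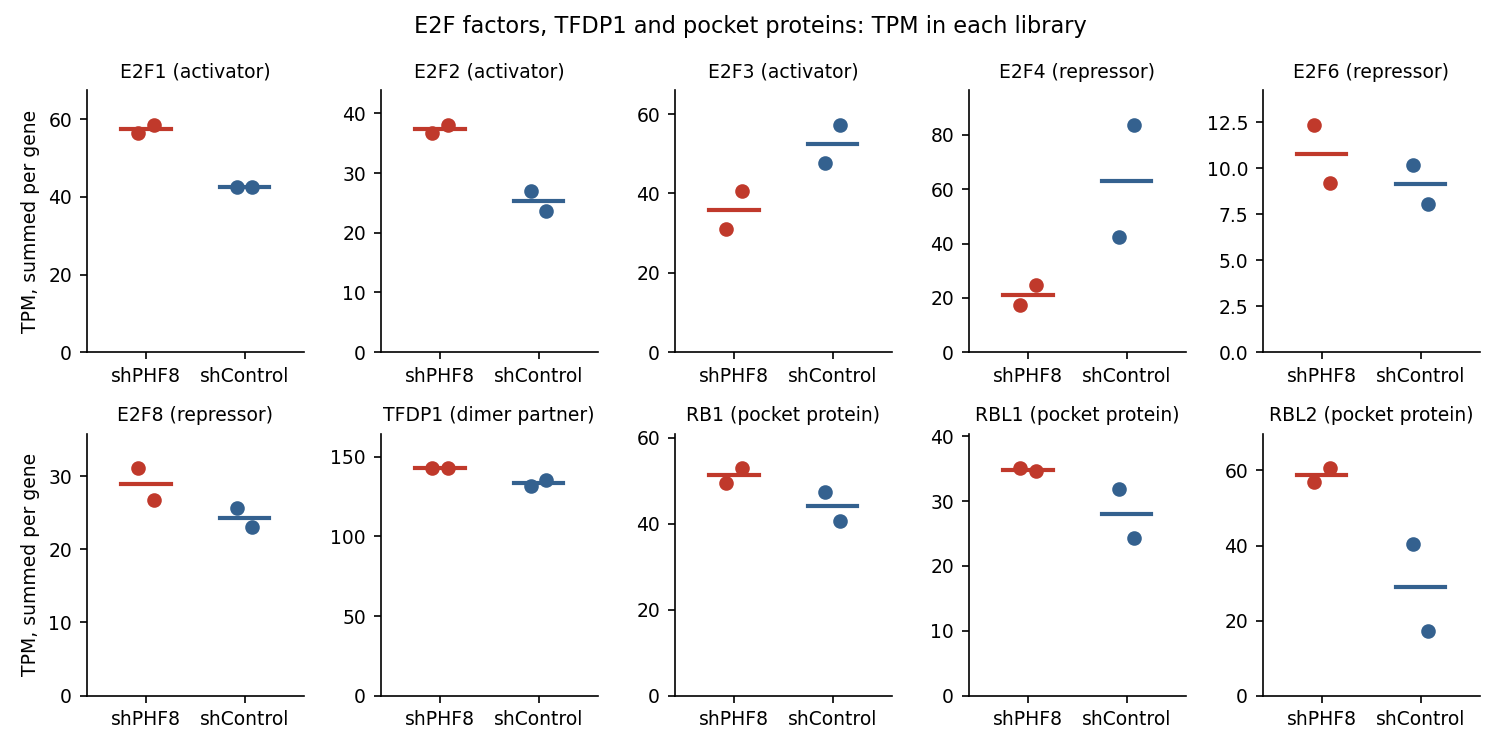
TPM summed per gene (vertical axes, from 0, scaled per gene) in the 2 shPHF8 and the 2 shControl libraries; points are libraries and lines are group means. E2F6 is the gene in which the groups overlap, while E2F4 and RBL2 show the widest gap between the shControl libraries, at 1.97 and 2.34 times.

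Among the activators, E2F1 and E2F2 were higher and E2F3 was lower in the knockdown libraries. E2F1, known to drive entry into S phase and, when in excess, apoptosis, was at 56.6 and 58.7 TPM in shPHF8 libraries and at 42.6 TPM in either shControl library. The groups were well apart and libraries of a group nearly equal. E2F1 averaged 57.6 ± 1.46 TPM in shPHF8 and 42.6 ± 0.0320 TPM in shControl libraries (SD over 2 libraries here and below), 135% of the control mean. On the log2 scale the difference was 0.43 ± 0.09 (SE), its 95% interval running from 0.17 to 0.68 (limma unadjusted p = 0.00938, Benjamini-Hochberg adjusted p = 0.123).

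E2F2, a close relative of E2F1, was at 36.8 and 38.1 TPM in shPHF8 libraries, against 27.1 and 23.7 TPM in shControl libraries. Both knockdown libraries stood above both controls, at 147% of the control mean. The log2 fold change was 0.55 ± 0.12 (SE; limma unadjusted p = 0.0110, adjusted p = 0.129). E2F3 was at 30.9 and 40.6 TPM in shPHF8 and at 47.6 and 57.3 TPM in shControl libraries. Of the activators it alone was lower in the knockdown than in the controls, at 68.2% of the control mean. Its log2 fold change was -0.55 ± 0.19 (SE; limma unadjusted p = 0.0413, adjusted p = 0.212). Without shControl replicate 1 or 2 the unadjusted limma p of E2F3 was 0.0670 and 0.179, and without shPHF8 replicate 1 it was 0.150, with a log2 fold change of -0.36. Summed over E2F1, E2F2 and E2F3, the activators came to 124.3 and 137.4 TPM in shPHF8 and to 117.2 and 123.7 TPM in shControl libraries, a difference no larger than that between the 2 shPHF8 libraries. Without shPHF8 replicate 2 the unadjusted limma p of E2F1 and E2F2 became 0.0598 and 0.0609.

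E2F4 had the largest log2 fold change in size among the 10 genes, and was lower. It was at 17.4 and 24.7 TPM in shPHF8 libraries, against 42.5 and 83.8 TPM in shControl libraries. The groups did not overlap, yet the shControl libraries differed 1.97 times between themselves. The mean was 21.1 ± 5.17 TPM in shPHF8 and 63.2 ± 29.2 TPM in shControl libraries, or 33.4% of the control level. The log2 fold change was -1.48 ± 0.39 (SE), with a 95% interval from -2.54 to -0.42, or 0.172 to 0.746 times the control on the TPM + 1 scale (limma unadjusted p = 0.0174, adjusted p = 0.152). Without shControl replicate 2 it was -0.998, and without shPHF8 replicate 1 it was -1.24 with an unadjusted limma p of 0.0771. GENCODE lists 1 pseudogene named after E2F4, and reads may be shared with it. How alike the copy is was not checked.

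The repressors that work without a pocket protein showed no difference with an unadjusted p under 0.05. E2F8, an E2F that binds DNA without a DP partner and limits E2F1 expression, was at 31.1 and 26.8 TPM in shPHF8 and at 25.6 and 23.0 TPM in shControl libraries, just apart. Its log2 fold change was 0.24, with a 95% interval from -0.15 to 0.63 (limma adjusted p = 0.402). E2F6, which represses within a Polycomb complex, was the least abundant of the 10, at 12.4 and 9.18 TPM in shPHF8 and 10.2 and 8.08 TPM in shControl libraries. These overlapped, with a log2 fold change of 0.21 and a 95% interval from -0.42 to 0.84 (limma adjusted p = 0.634). GENCODE lists 4 pseudogenes named after E2F6 and 2 named after E2F3, which makes those values less certain. The E2F6 interval runs between 0.748 and 1.79 times the control on the TPM + 1 scale.

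E2F1 and E2F2 held larger shares of the E2F mRNA in the knockdown libraries, and E2F3 and E2F4 smaller ones. The 6 E2F genes summed to 185.2 and 198.02 TPM in shPHF8 and to 195.5 and 238.5 TPM in shControl libraries. The activators made up 67.1% and 69.4% of that sum in shPHF8 and 60.0% and 51.8% in shControl libraries. E2F1 stood at 3.25 and 2.37 times the TPM of E2F4 in shPHF8 libraries, against 1.00 and 0.508 times in shControl libraries. E2F3 made up 16.7% and 20.5% of the sum in shPHF8 and 24.3% and 24.0% in shControl libraries. E2F4 took 9.41% and 12.5% of the E2F sum in the knockdown and 21.7% and 35.1% in the controls. These shares are descriptions of mRNA with no test, and carry the wide spread of E2F4 in the controls.

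TFDP1, whose product pairs with most E2F proteins, was the most abundant of the 10 and had the smallest standard error. It was at 142.9 and 142.7 TPM in shPHF8 libraries and at 131.6 and 135.3 TPM in shControl libraries. The groups did not overlap, but the step was small, with a log2 fold change of 0.10 and a 95% interval from -0.10 to 0.29 (limma adjusted p = 0.481). That interval amounts to 0.936 to 1.22 times the control.

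All 3 pocket protein genes had higher values in the knockdown libraries, and none reached an unadjusted p of 0.05. RB1, which encodes the retinoblastoma tumour suppressor, was at 49.6 and 52.96 TPM in shPHF8 and at 47.3 and 40.8 TPM in shControl libraries. Its log2 fold change was 0.22 ± 0.12 (SE; limma adjusted p = 0.380). On the opposite strand GENCODE lists the protein-coding genes LPAR6 and RCBTB2 as overlapping RB1, and AKTIP as overlapping RBL2. Reads from a shared stretch cannot be told apart without strand. Whether exons overlap was not checked. RBL1, a pocket protein gene that is itself an E2F target, was at 35.1 and 34.6 TPM in shPHF8 and at 31.8 and 24.2 TPM in shControl libraries. The log2 fold change was 0.32 ± 0.17 (SE; limma adjusted p = 0.359). In both genes the lower control library was replicate 2; without shControl replicate 1 the log2 fold change of RBL1 was 0.51 with an unadjusted limma p of 0.0317, and without shControl replicate 2 it was 0.13.

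RBL2, whose product p130 is most abundant in resting cells, had the largest positive log2 fold change of the 10 and the widest spread between controls. It was at 56.8 and 60.6 TPM in shPHF8 libraries, against 40.5 and 17.3 TPM in shControl libraries. The shPHF8 libraries agreed within 1.07 times while the controls differed 2.34 times. The log2 fold change was 1.11 ± 0.42 (SE), with a 95% interval from -0.04 to 2.27 (limma unadjusted p = 0.0552, adjusted p = 0.237). Without shControl replicate 1 it was 1.70 with an unadjusted limma p of 0.00131, and without shControl replicate 2 it was 0.52 with an unadjusted limma p of 0.0221. The 3 pocket protein genes together came to 141.5 and 148.2 TPM in shPHF8 and to 119.6 and 82.3 TPM in shControl libraries. RBL2 made up 40.2% and 40.9% of that sum in shPHF8 libraries, against 33.9% and 21.03% in shControl libraries.

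**Figure D2:**
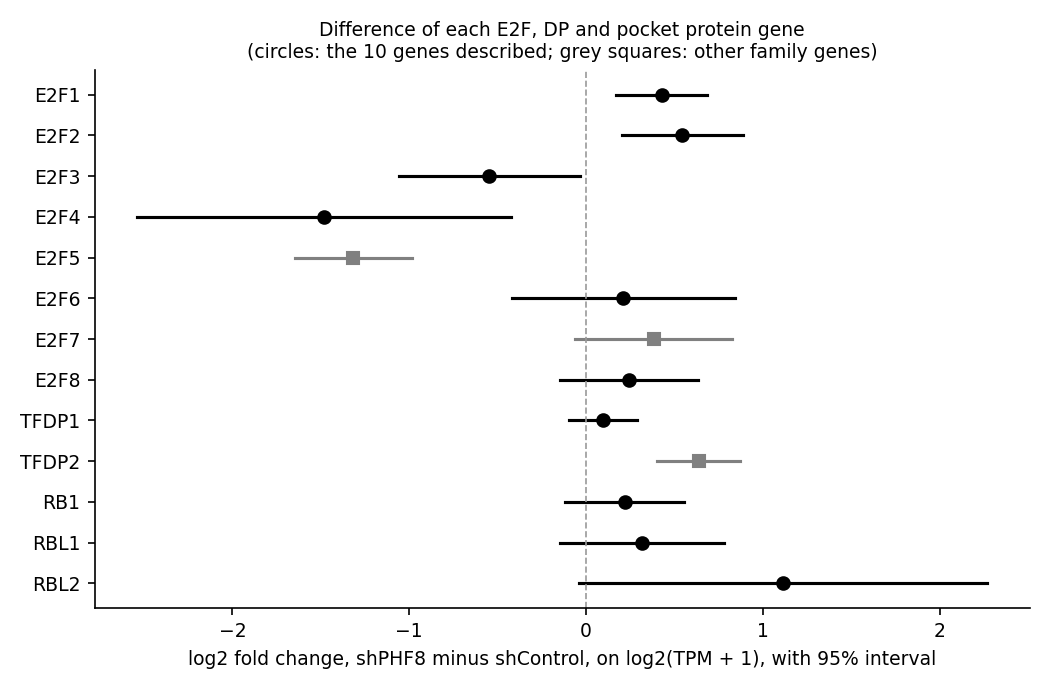
Log2 fold change, shPHF8 minus shControl, on log2(TPM + 1) (horizontal axis) with its 95% limma interval for the 10 genes (black circles) and E2F5, E2F7 and TFDP2 (grey squares). The intervals of E2F1, E2F2 and TFDP2 lie above 0 and those of E2F3, E2F4 and E2F5 below it; no gene passed over all genes.

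The order of levels also differed between groups. In shPHF8 libraries the order by mean TPM was TFDP1, RBL2, E2F1, RB1, E2F2, E2F3, RBL1, E2F8, E2F4 and E2F6. There the ranges of RBL2 and E2F1, of E2F2 and E2F3, and of E2F3 and RBL1 overlapped. The range of E2F3 also overlapped that of E2F8, and in shPHF8 library 1 E2F3 was at rank 8 and E2F8 at rank 7. In shControl libraries it was TFDP1, E2F4, E2F3, RB1, E2F1, RBL2, RBL1, E2F2, E2F8 and E2F6. Among these, neighbours overlapped between E2F4 and E2F3, between RB1 and E2F1, and along the run from RBL2 through RBL1 and E2F2 to E2F8. By library, E2F4 was at rank 9 in both shPHF8 libraries, against rank 5 in shControl library 1 and rank 2 in shControl library 2, so that its control range also overlapped those of RB1 and E2F1. RBL2 was at rank 2 in both shPHF8 libraries, against ranks 6 and 9 in shControl libraries 1 and 2.

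Of the E2F3 transcripts, E2F3-001 had an unadjusted p under 0.05 and was lower, and the other 2 did not. E2F3 has 3 listed transcripts, and division of reads between them is an estimate. E2F3-001 encodes 465 amino acids in GENCODE release 29, and begins 288 bases after the upstream start, whose window holds an E2F match. It was at 11.0 and 19.3 TPM in shPHF8 libraries, against 30.7 and 33.9 TPM in shControl libraries. The groups did not overlap, and its share of the gene was 35.7% and 47.5% in shPHF8 and 64.6% and 59.05% in shControl libraries. Its log2 fold change over all transcripts was -1.09 ± 0.33 (SE; limma unadjusted p = 0.0338, adjusted p = 0.426). E2F3-201 encodes 334 amino acids and begins 65 bases after the downstream start, 1735 bases further on, whose window holds no match. It was at 16.0 and 13.4 TPM in shPHF8 and at 14.1 and 19.3 TPM in shControl libraries, with the groups overlapping (log2 fold change -0.16, limma adjusted p = 0.831). E2F3-202, a short form that begins 27 bases after the upstream start, was at 3.84 and 7.95 TPM in shPHF8 and 2.71 and 4.19 TPM in shControl libraries. Its groups overlapped, with a log2 fold change of 0.58 in the other direction (limma adjusted p = 0.689), so the 2 transcripts near the upstream start did not share a direction. Without shControl replicate 1 or 2 the unadjusted limma p of E2F3-001 was 0.137 and 0.167.

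Of the 22 transcripts, 4 had an unadjusted limma p under 0.05, 2 higher and 2 lower, against 10.3% of the 30266 transcripts tested, 4.91% higher and 5.38% lower. Groups did not overlap in 12, of which 9 were higher and 3 lower, against 43.2% of all transcripts, 21.0% higher and 22.2% lower. None passed over all transcripts, where 1 (0.00330%) did. The count of 4 was 1 without shPHF8 replicate 2, 2 without shPHF8 replicate 1 or without the trend, and 6 without shControl replicate 1. The 4 were E2F3-001 and the only listed transcripts of E2F1, E2F2 and E2F4. The 3 transcripts of E2F8 encode the same 867 amino acids and traded places between libraries of 1 group. E2F8-001 was at 21.6 and 9.57 TPM in shPHF8 and at 4.96 and 12.96 TPM in shControl libraries, while E2F8-002 was at 9.48 and 8.89 TPM in shPHF8 and at 20.6 and 9.98 TPM in shControl libraries. E2F8-201 was at 8.29 TPM in shPHF8 library 2 but listed at 0 in shPHF8 library 1, and at 0.0433 TPM or listed at 0 in the controls. The gene sum of E2F8 varied less than its parts, as the libraries of a group lay within 1.16 times of each other. For RBL2, the shorter RBL2-002 (639 amino acids) was at 6.57 TPM in shControl library 2, the library with the low gene value, and at 0.0437 and 0.196 TPM in the shPHF8 libraries. It was listed at 0 in shControl library 1. RBL2-001 (1139 amino acids) was at 56.8 and 60.4 TPM in shPHF8, against 40.5 and 10.7 TPM in shControl libraries. The E2F6 sum was spread over 4 transcripts at 0.918 to 3.62 TPM, none with more than 38.2% of the gene in any library. RBL1-001 held 82.0% to 93.5% of RBL1, and TFDP1-001 held 96.9% to 97.9% of TFDP1.

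**Figure D3:**
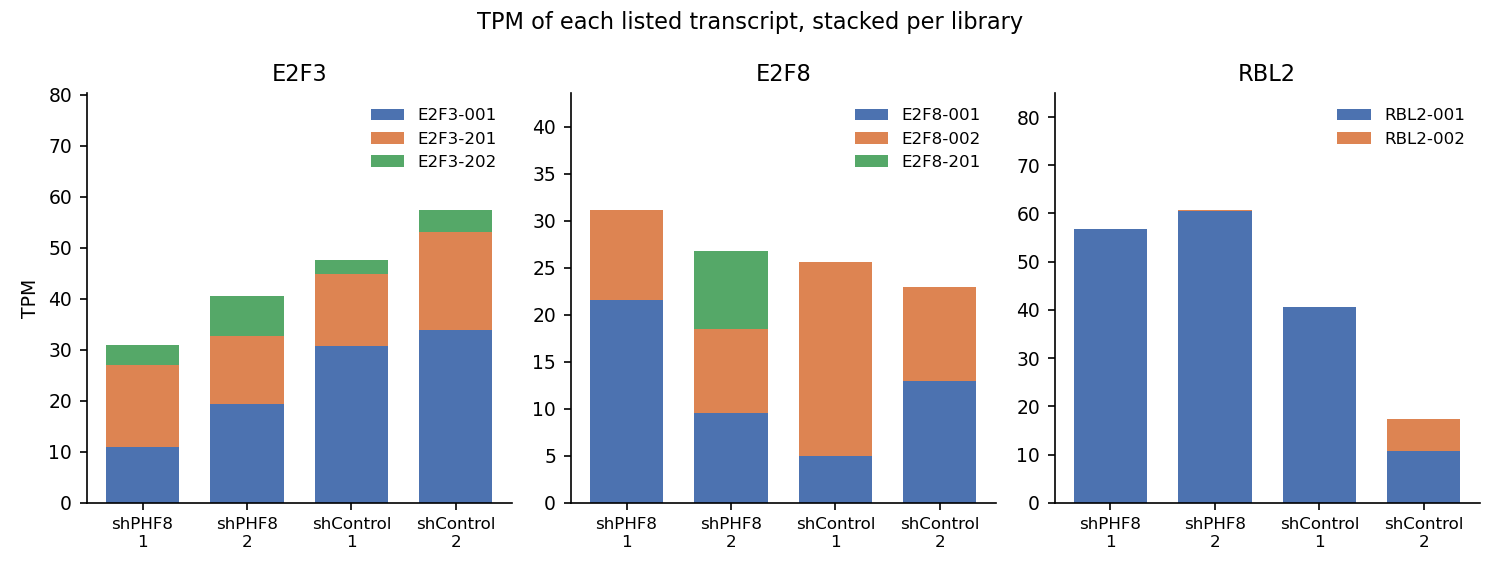
TPM (vertical axes, from 0) of each listed transcript of E2F3, E2F8 and RBL2, stacked per library, with shPHF8 libraries on the left. E2F3-001 stands at 11.0 and 19.3 TPM in shPHF8 and 30.7 and 33.9 TPM in shControl libraries, while the E2F8 transcripts vary within each group.

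Of the family genes outside the 10, E2F5 was lower and TFDP2 higher at an unadjusted p under 0.05. E2F5, the closest relative of E2F4 and also a partner of p130, was at 13.3 and 13.7 TPM in shPHF8 libraries, against 36.0 and 34.4 TPM in shControl libraries. Here the libraries of a group were close, and the log2 fold change was -1.32 ± 0.12 (SE; limma unadjusted p = 3.26e-04, adjusted p = 0.0652). E2F4 and E2F5 together came to 30.8 and 38.5 TPM in shPHF8 and to 78.5 and 118.2 TPM in shControl libraries. TFDP2, which encodes the alternative partner DP2, was at 129.0 and 140.7 TPM in shPHF8 and at 87.2 and 85.4 TPM in shControl libraries (log2 fold change 0.64 ± 0.09 (SE), limma unadjusted p = 0.00152, adjusted p = 0.0767). E2F7, the close relative of E2F8, was at 24.96 and 21.6 TPM in shPHF8 and 19.2 and 16.1 TPM in shControl libraries (limma adjusted p = 0.276). TFDP3 was not analysed here.

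Genes that act with or on these factors were counted from lists, and 0 members of any list passed limma with Benjamini-Hochberg adjustment over all genes. At an unadjusted limma p under 0.05, 9.90% of all genes tested were higher and 12.1% lower, the shares to set beside each count below. At that threshold 4 of 9 DREAM and MuvB partners, the complex that joins E2F4 to p107 or p130, were higher. Another 1 was lower, and the median log2 fold change was 0.31. Among them LIN37 was at 14.8 and 13.99 TPM in shPHF8, against 4.89 and 7.51 TPM in shControl libraries. The kinase DYRK1A, which assembles DREAM, averaged 32.3 TPM in shPHF8 and 25.3 TPM in shControl libraries, while LIN52 averaged 7.25 TPM in shPHF8 and 12.05 TPM in shControl libraries. MYBL2, whose product joins MuvB in proliferating cells, was at 154.3 and 155.6 TPM in shPHF8 and at 185.4 and 166.9 TPM in shControl libraries, with an unadjusted limma p of 0.0948. The count of 4 higher was 1 without shControl replicate 2 or without shPHF8 replicate 2, and 2 without shControl replicate 1 or without the trend.

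The cyclins and kinases that phosphorylate pocket proteins, with their activator CDC25A, went both ways, with 2 of 10 higher and 3 lower at that threshold. Their median was 0.03, and 9.90% of all genes were higher and 12.1% lower at the same threshold. The D-type cyclins CCND2 and CCND1 were lower, at 47.9 and 2.63 TPM in shPHF8, against 90.8 and 8.20 TPM in shControl libraries on average (log2 fold changes -0.91 and -1.34). Their kinase CDK6 was higher, at 110.8 TPM in shPHF8 and 76.1 TPM in shControl libraries, as was the phosphatase CDC25A, at 92.4 TPM in shPHF8 and 74.3 TPM in shControl libraries. CDK2 was the third that was lower (log2 fold change -0.48). Of 5 CDK inhibitors tested, CDKN1A (p21) was higher, at 31.4 TPM in shPHF8 and 18.7 TPM in shControl libraries, and CDKN1C (p57) was lower, at 10.3 TPM in shPHF8 and 20.9 TPM in shControl libraries. The median of the 5 was 0.01. CDKN2C and CDKN2D had log2 fold changes of 0.24 and -0.44, neither under 0.05. CDKN2A and CDKN2B were not analysed here.

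Of 14 coregulators, 3 were higher and 1 lower at the unadjusted threshold, which 9.90% of all genes passed as higher and 12.1% as lower. SMARCA4, the ATPase of the SWI/SNF remodeller, averaged 98.5 TPM in shPHF8 and 68.9 TPM in shControl libraries, and the deacetylase HDAC3 averaged 74.0 TPM in shPHF8 and 40.3 TPM in shControl libraries. The median of the 14 was 0.20. The member that was lower was PHF8 itself, and the corepressor SIN3B had a log2 fold change of -0.14. Of 10 partners of E2F6 in its Polycomb complex, 1 was higher, PCGF6, at 55.5 TPM in shPHF8 and 40.2 TPM in shControl libraries. RNF2, YAF2 and WDR5 of the same complex had log2 fold changes of 0.24, -0.35 and -0.09 and did not reach 0.05, and the median of the 10 was 0.04. Of 6 genes for E2F turnover, 0 reached it; CDC27, FBXW11, BTRC and CCNF had log2 fold changes of 0.09, 0.02, -0.23 and -0.35, with a median of -0.08 for the 6.

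Among E2F targets of the G1/S transition, 10 of 33 were higher and 0 were lower at an unadjusted limma p under 0.05, against 9.90% and 12.1% of all genes. The median log2 fold change of the 33 was 0.22 and 28 were above 0. The replicative helicase subunits MCM6 and MCM7 led, at 250.6 and 370.7 TPM in shPHF8, against 103.0 and 261.6 TPM in shControl libraries on average, with log2 fold changes of 1.28 and 0.50. The lowest by p of those below 0 was GINS1, with a log2 fold change of -0.27 (limma unadjusted p = 0.0570). Without shPHF8 replicate 2 the count of higher genes was 6, with 1 lower; 1 was also lower without shControl replicate 2. An E2F motif match stood in 16 of the 28 G1/S genes with a promoter window (57.1%), and 3 of these 16 were among the higher ones, against 4 of the 12 without a match.

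Across all tested genes with a window, the 635 with a match had a median log2 fold change of 0.06 and the 8293 without one had -0.02. Of those with a match 13.2% were higher and 8.19% lower at the unadjusted threshold, against 9.90% and 12.0% of those without. Among DREAM targets of the G2/M transition 5 of 19 were higher and 1 lower, against 9.90% and 12.1% of all genes, with a median of 0.18. TOP2A and the checkpoint kinase BUB1 were higher (log2 fold changes 0.38 and 0.30), the mitotic kinase AURKB was lower (-0.40), and AURKA had -0.13 with an unadjusted limma p of 0.146. That count of 5 was 0 without shPHF8 replicate 2, 2 without shControl replicate 2 or shPHF8 replicate 1, and 1 without the trend. Without shPHF8 replicate 1, and likewise without shPHF8 replicate 2, AURKB was above an unadjusted p of 0.05. UBE2C averaged under 1 TPM and was not tested.

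Of 8 apoptosis genes described as E2F1 targets, 1 was higher and 1 lower at the unadjusted threshold, against 9.90% and 12.1% of all genes. TP73, the p53 relative known as a direct target of E2F1, was at 7.20 and 6.47 TPM in shPHF8 libraries, against 1.80 and 1.88 TPM in shControl libraries. The groups did not overlap, with a log2 fold change of 1.46 ± 0.22 (SE; limma unadjusted p = 0.00220, adjusted p = 0.0877). ATM and PMAIP1 had log2 fold changes of 0.35 and -0.21, neither under 0.05. The median of the 8 was 0.15. Without shControl replicate 1, and likewise without shControl replicate 2, 3 genes were higher. Without shControl replicate 2, and likewise without either shPHF8 replicate in turn, 0 genes were lower.

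The smaller counts also depended on single libraries. Without shPHF8 replicate 2, 0 cyclin and kinase genes were higher, 0 CDK inhibitors and 0 DREAM partners were lower, and 1 turnover gene was lower. Without shPHF8 replicate 1, 1 cyclin or kinase gene was higher, 2 CDK inhibitors were lower and 0 DREAM partners were lower. Without shControl replicate 1, 2 CDK inhibitors were higher and 1 partner of E2F6 was lower, and 2 CDK inhibitors were also higher with median-of-ratios scaling.

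**Figure D4:**
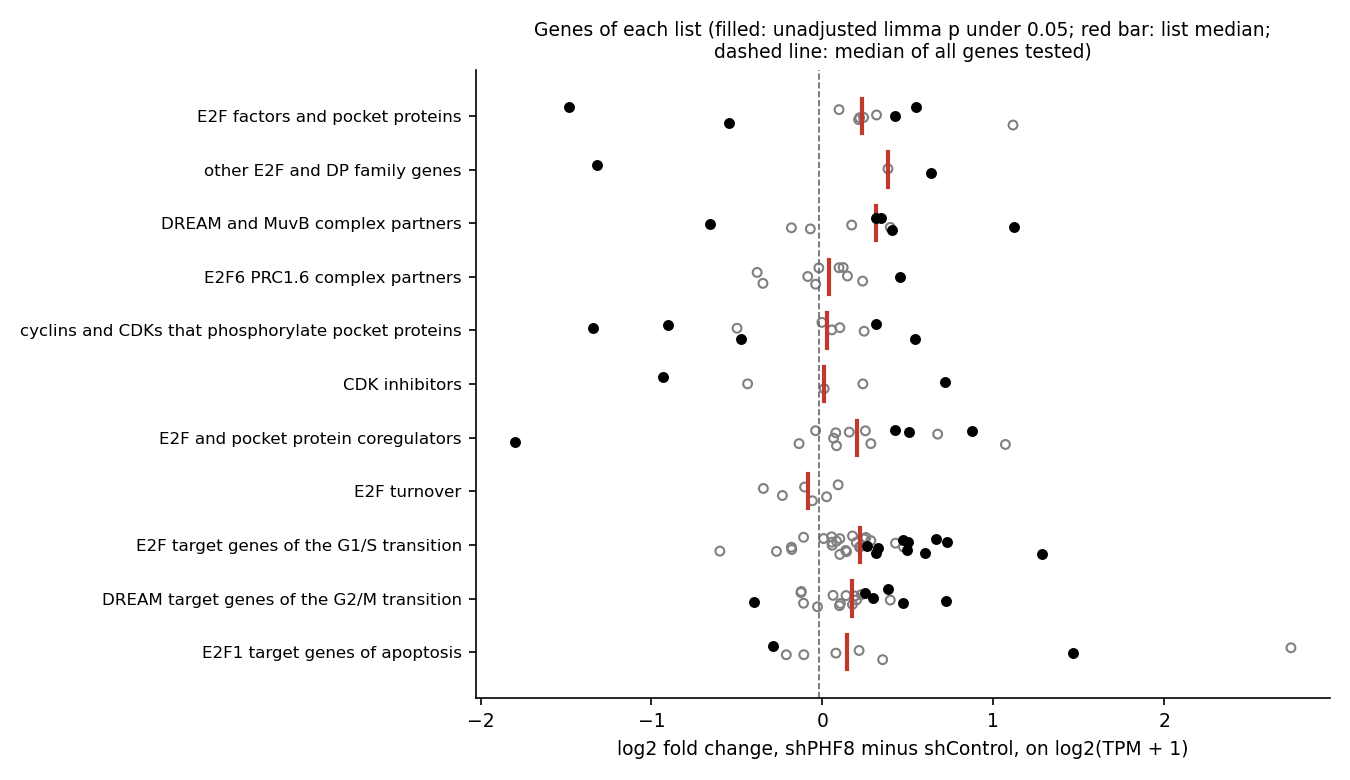
Log2 fold change, shPHF8 minus shControl, on log2(TPM + 1) (horizontal axis) of each tested gene in the 10 genes described and in 10 lists (rows); filled points have an unadjusted limma p under 0.05, red bars are medians and the dashed line is the median of all genes, -0.02. The 10 filled G1/S points all lie to the right of 0.

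The genes whose pattern over the 4 libraries was most like that of E2F1 were MINPP1, HIST1H2BF and FAF1, with Euclidean distances of 0.0229, 0.0245 and 0.0301 between centred log2(TPM + 1) values, among 4183 genes within a factor of 2 of its mean. For RB1 they were PLCXD1, PDCD7 and PAPD7, at 0.0268, 0.0315 and 0.0316 among 4240. This is a description of 4 libraries.

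Markers of the line and of other cell types also differed between the groups. Of 10 erythroid markers, 7 were higher at an unadjusted limma p under 0.05 and 0 were lower, against 9.90% and 12.1% of all genes tested. Together the 10 summed to 15834 to 16551 TPM in shPHF8 and to 10324 to 11075 TPM in shControl libraries. The fetal globin HBG2 and the transferrin receptor TFRC led, with log2 fold changes of 0.81 and 0.85, while the erythroid factor GATA1 had -0.14. HBG2 shares reads with its near-identical copy HBG1, which makes its value uncertain. From a list of 11 granulocyte and monocyte genes, the 6 that could be tested were all lower, with sums of 78.1 to 83.4 TPM in shPHF8 and 145.1 to 164.0 TPM in shControl libraries, among them LYZ and CD33 (-0.75 and -1.12). The defining genes MPO, ELANE, CD14, CSF1R and S100A8 were not analysed here. From 6 lymphocyte genes 2 were tested, among them CD3D (log2 fold change -1.19), with sums of 10.98 to 15.6 TPM in shPHF8 and 30.4 to 34.4 TPM in shControl libraries. From 6 stromal and endothelial genes COL1A1 and COL1A2 were tested, with sums of 2.52 to 3.42 TPM in shPHF8 and 9.88 to 13.0 TPM in shControl libraries. They went opposite ways, with log2 fold changes of 0.21 for COL1A1, whose groups overlapped, and -2.07 for COL1A2. The part of these differences in the E2F and pocket protein values was not tested.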

How the data were processed

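RNA from 2 shPHF8 and 2 shControl libraries of K562 cells was analysed, grouped by the titles. The authors deposited 1 table of TPM per transcript, per the file headers, and each TPM column sums to 1000000. A further 4 deposited columns carry no unit, are described as signal and were used only to check that they are a constant multiple of TPM. The build hg19 and the tools HISAT2 2.0.4 and StringTie 1.2.3 are named, without their roles, per the submitters' processing notes; annotation, strandedness and filters are not stated there. TPM keep no read number, so depth is unknown; as shares, they also shift when abundant transcripts change. Without strand, reads of overlapping antisense genes, as at RB1, RBL1, RBL2 and E2F8, cannot be told apart.

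TPM were summed per gene name and tested with limma 3.58.1 in R 4.3.3 on log2(TPM + 1), with a mean-variance trend, two-sided, over the 10972 genes averaging 1 TPM or more, and likewise over 30266 transcripts, with Benjamini-Hochberg adjustment at 0.05. The fit had 2 residual and 2.16 prior degrees of freedom. With 2 libraries a group, the smallest two-sided p of an exact permutation test is 0.333, and none was run. The fit was tested on simulated data. The genes, lists and tests were chosen with earlier results of these data known. Genes named were the 10, PHF8, E2F5, E2F7 and TFDP2, transcripts with at least 10% of a gene, in each list the 2 genes of lowest p that were higher and the 2 that were lower, and the 3 nearest profiles; CDK2 was added after its values were seen, and some genes that the rule names are not reported here. Alternatives were another pseudocount, 2 other filters, 2 scalings, no trend, a replicate block and each library left out. Promoter windows were matched by symbol, or by the current symbol of the Ensembl identifier, for 81.4% of tested genes. Summaries used pandas 2.3.3 under Python 3.11.15, and plots matplotlib 3.10.9.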

Additional observations from a re-analysis of the deposited data

How the results depend on the processing

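The 10 genes kept the direction of their log2 fold change in all 110 recomputed values over 11 alternatives, and 0 of them passed over all genes under any of these, nor did any of their transcripts. Quantile normalization called 17 genes higher and 20 lower over all genes; the other 10 alternatives called 0. At an unadjusted limma p under 0.05, E2F4 alone was lower without the trend (1 gene). Leaving out each library gave 0 to 4 of the 10 genes higher, 0 to 2 lower and a median log2 fold change of 0.12 to 0.34. With the replicate block 3 of the 10 genes were higher at that threshold, with RBL2 added, and 2 were lower. The higher counts of DREAM partners and G2/M genes were then 1 and 3, and 2 of the 22 transcripts reached the threshold. Deviations of same-numbered libraries correlated at -0.0289 across genes. The titles do not say whether numbers 1 and 2 pair the libraries, and with 2 libraries a group this correlation cannot decide it. Where a group is left with 1 library, limma assumes that it varies like the others. Leaving out each library gave -0.38 to 0.0498 for the transcript E2F3-201 (0.0498 without shControl replicate 2), -0.95 to 0.26 for CCNF (0.26 without shPHF8 replicate 1), -0.14 to 0.32 for CDC27 (-0.14 without shPHF8 replicate 2) and -0.0665 to 0.12 for FBXW11 (-0.0665 without shControl replicate 2 and -0.04 without shPHF8 replicate 2); the cause was not tested. Depth is unknown, so the precision rests on the spread between 2 libraries a group, which limma combines with the spread of other genes.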
